A study of Homo sapiens with 2 samples.

Results

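The Yippee-like family consists of 5 human genes, YPEL1 to YPEL5, chosen by name, and all 5 of them were found among the 19927 gene rows of the count table. They were measured by mRNA sequencing of Huh7, an established human hepatocellular carcinoma cell line. One library came from cells carrying a short hairpin RNA against PPIL1 (labelled shPPIL1#1, genotype PPIL1 knockdown; called shPPIL1 here) and 1 from cells carrying a control hairpin (labelled shControl, genotype WT). Cultures of either kind therefore carried a hairpin, and the knockdown rests on a single hairpin and a single library. The comparison asks what lowering PPIL1, a prolyl isomerase of the active spliceosome, does to gene expression in these cells.

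Yippee-like proteins are small, highly conserved zinc-binding proteins named after the Drosophila protein Yippee. YPEL1 to YPEL4 are close relatives found in the nucleus, and overexpression of several of them has been linked to changes in cell shape, growth arrest or senescence. YPEL5 is the more distant member and is a component of the CTLH complex, a RING-type ubiquitin ligase related to the yeast GID complex that degrades gluconeogenic enzymes.

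The members were proposed with their ratios in these libraries already known, so their ratios are given as descriptions. Each group had 1 library, so the spread between cultures is unknown and nothing could be tested. A ratio is shPPIL1 over shControl after TMM scaling of the library sizes, with an exact 95% interval that covers counting error only. Library totals were 41165401 reads in shPPIL1 and 41015345 in shControl, with 15657 genes detected in shPPIL1 and 15589 in shControl. PPIL1 itself had 104 reads in shPPIL1 and 1505 in shControl, a ratio of 0.0679 (0.0551 to 0.0829), the direction of the labels. All 8 hepatocyte markers examined were kept, with a summed level of 11226 FPKM in shPPIL1 and 10814 FPKM in shControl.

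The members are closer to each other in residues than in bases, apart from YPEL5, and the bases decide whether a read can be assigned to 1 of them. Translated from GENCODE coding sequences, YPEL1, YPEL2 and YPEL3 are each 119 residues long, YPEL4 is 127 and YPEL5 is 121. YPEL1 and YPEL2 shared 96.6% of their aligned residues and 80.7% of their coding bases. YPEL3 shared 88.2% of residues with YPEL1 and 89.1% with YPEL2, and YPEL4 shared 79.8% with YPEL1 and with YPEL3 and 81.5% with YPEL2. YPEL5 shared between 42.3% and 47.7% with the other 4. Each of the 5 proteins held exactly 2 Cys-x-x-Cys pairs, the metal-binding motif of the family, separated by 52 residues.

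The coding stretch that starts at the first of these cysteines shows how the genes differ around this shared motif. Below, 60 bases of each are given 5′ to 3′ on the coding strand, with capitals for bases that differ from YPEL2 at the same place. YPEL1 differed from YPEL2 at 11 of the 60 bases, YPEL4 at 12, YPEL3 at 15 and YPEL5 at 30.
YPEL1: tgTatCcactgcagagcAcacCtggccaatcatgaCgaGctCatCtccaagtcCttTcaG
YPEL2: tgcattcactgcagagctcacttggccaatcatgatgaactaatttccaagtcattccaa
YPEL3: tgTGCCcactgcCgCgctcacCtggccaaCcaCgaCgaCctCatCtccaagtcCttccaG
YPEL4: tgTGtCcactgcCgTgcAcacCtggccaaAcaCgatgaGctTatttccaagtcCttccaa
YPEL5: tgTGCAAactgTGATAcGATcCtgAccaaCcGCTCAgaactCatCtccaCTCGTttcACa
In GENCODE 29 (GRCh38) the stretch runs over chr22:21703874-21710678 for YPEL1, chr17:59353476-59388335 for YPEL2, chr16:30095138-30095302 for YPEL3 and chr11:57646786-57647017 for YPEL4, each interrupted by an intron, and over chr2:30156700-30156759 for YPEL5, within 1 exon. YPEL1, YPEL3 and YPEL4 lie on the minus strand, YPEL2 and YPEL5 on the plus strand. The longest run of identical coding bases between any 2 members was 22, between YPEL1 and YPEL3. Of the 100-base windows sampled along the members' longest coding transcripts, 0 matched a transcript of another gene exactly. At 50 bases, 3 of 428 windows of YPEL1 and 5 of 190 windows of YPEL3 did, all with genes outside the family, and 0 windows of YPEL2, YPEL4 and YPEL5. Windows were compared in transcript direction only, so exons shared with genes on the opposite strand could not match. Whether reads from such shared exons can be assigned is not answered by these counts.

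**Figure D1:**
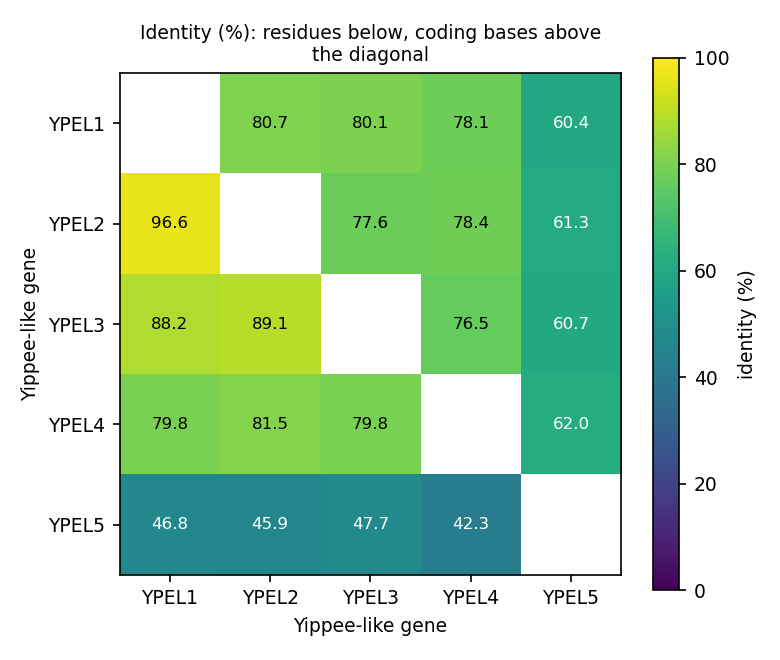
Identity in percent between each pair of Yippee-like genes, for aligned residues (below the diagonal) and aligned coding bases (above it). YPEL1 and YPEL2 reach 96.6% of residues at 80.7% of bases, and every pair with YPEL5 stays at or below 47.7% of residues.

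YPEL5 was the most strongly expressed member per length in either library. It had 2759 reads in shPPIL1 and 2594 in shControl, or 26.3 FPKM in shPPIL1 (95% counting interval 25.3 to 27.3) and 24.8 FPKM in shControl (23.9 to 25.8). Its ratio was 1.04, with an interval from 0.990 to 1.10 that includes 1. By library totals in place of TMM scaling it was 1.06, with an interval from 1.004 to 1.12 that excludes 1. YPEL5 made up 56.4% of the family's reads in shPPIL1 (exact 95% interval 55.0 to 57.8%) and 57.4% in shControl (55.97 to 58.9%).

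YPEL3, which is known to restrain proliferation when overexpressed, followed YPEL5. It had 782 reads in shPPIL1 and 659 in shControl, or 15.0 FPKM in shPPIL1 and 12.7 FPKM in shControl. The ratio was 1.17 (1.05 to 1.30), a small difference whose counting interval excluded 1. The interval lay above 1 for 24.6% of the 12540 genes with 1 CPM or more in shPPIL1 or shControl, so this does not set YPEL3 apart. YPEL2, a less studied paralog nearly identical in protein to YPEL1, had 1247 reads in shPPIL1 and 1237 in shControl, or 5.75 FPKM in shPPIL1 and 5.73 FPKM in shControl. Its ratio was 0.990 (0.915 to 1.07), so that no difference was detectable at this depth.

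YPEL4 and YPEL1 stood far below these in level and far above them in ratio. YPEL4 had 52 reads in shPPIL1 and 12 in shControl, or 0.495 FPKM in shPPIL1 (0.370 to 0.649) and 0.115 FPKM in shControl (0.0592 to 0.200). Its ratio was 4.26 (2.24 to 8.76), a log2 ratio of 2.09 (1.17 to 3.13). YPEL1 had 53 reads in shPPIL1 and 15 in shControl, or 0.280 FPKM in shPPIL1 (0.209 to 0.366) and 0.0794 FPKM in shControl (0.0444 to 0.131). Its ratio was 3.47 (1.93 to 6.63), a log2 ratio of 1.80 (0.95 to 2.73). For these 2 genes the FPKM intervals of the libraries did not overlap, and the interval of YPEL4 lay wholly above 2-fold while that of YPEL1 reached below it.

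The order of FPKM was the same in shPPIL1 and shControl, namely YPEL5, YPEL3, YPEL2, YPEL4 and YPEL1. Neighbours in that order were separated beyond counting error in either library, except YPEL4 and YPEL1 in shControl, whose intervals overlapped. In shPPIL1 the intervals of YPEL4 and YPEL1 were barely apart, with 52 and 53 reads at gene lengths of 2552 and 4606 bases. YPEL2 exceeded YPEL4 11.6-fold in shPPIL1 and 49.9-fold in shControl.

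**Figure D2:**
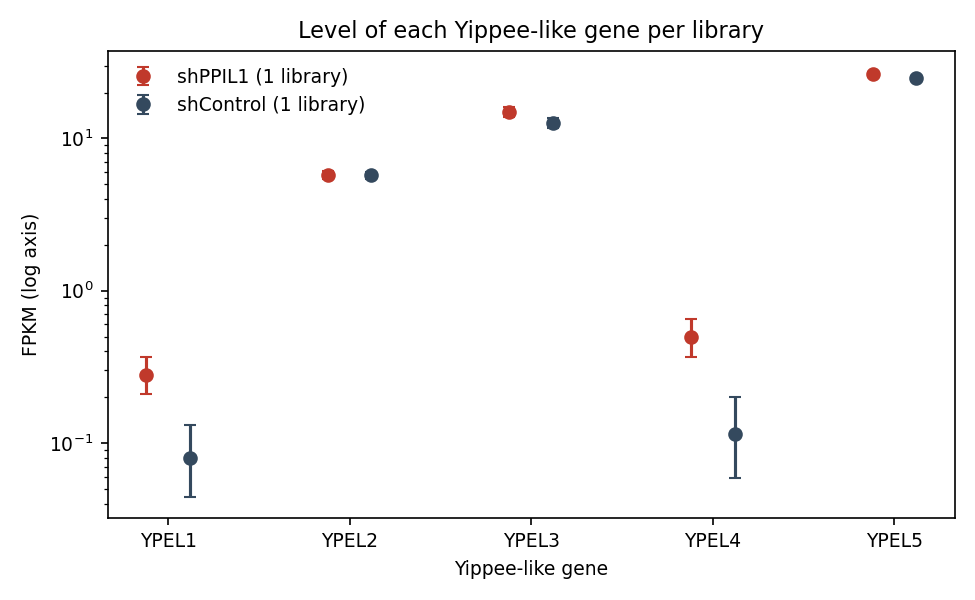
FPKM of each Yippee-like gene on a log axis, with shPPIL1 left of shControl and bars for the 95% counting interval of 1 library each. YPEL2, YPEL3 and YPEL5 lie at 5.73 to 26.3 FPKM with the libraries close together, whereas YPEL1 and YPEL4 lie below 0.5 FPKM with shPPIL1 above shControl.

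Summed over the 5 genes, the family had 4893 reads in shPPIL1 and 4517 in shControl, a ratio of 1.06 (1.02 to 1.11). YPEL1 and YPEL4 together contributed 105 reads in shPPIL1 and 27 in shControl. Without them, the other 3 genes had 4788 reads in shPPIL1 and 4490 in shControl, a ratio of 1.05 (1.01 to 1.09). The summed level was 47.8 FPKM in shPPIL1 and 43.4 FPKM in shControl, of which YPEL1 and YPEL4 together made up 0.775 FPKM in shPPIL1 and 0.194 FPKM in shControl. In these bulk libraries, more cells expressing a gene and more RNA per cell cannot be told apart.

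To set the members against the background, the 12540 genes with 1 CPM or more in shPPIL1 or shControl were kept. A gene was counted as 2-fold higher when its ratio was 2 or more and its interval excluded 1. Of the 5 members, 2 were 2-fold higher, YPEL1 and YPEL4, and 0 were 2-fold lower. Over all kept genes 0.526% were 2-fold higher, but the members were chosen on this contrast and nothing is read from these shares. All 5 members were kept, YPEL1 and YPEL4 only through shPPIL1, with 1.28 CPM in shPPIL1 and 0.368 CPM in shControl for YPEL1, and 1.25 CPM in shPPIL1 and 0.295 CPM in shControl for YPEL4. Of 169 kept genes that reached 1 CPM in shPPIL1 alone, 46 were 2-fold higher, out of 66 such genes in all. Among all genes with 50 to 100 reads in both libraries together, a range that holds YPEL1 and YPEL4 and was set after seeing the data, 58 of 717 (8.09%) were 2-fold higher and 47 were 2-fold lower.

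**Figure D3:**
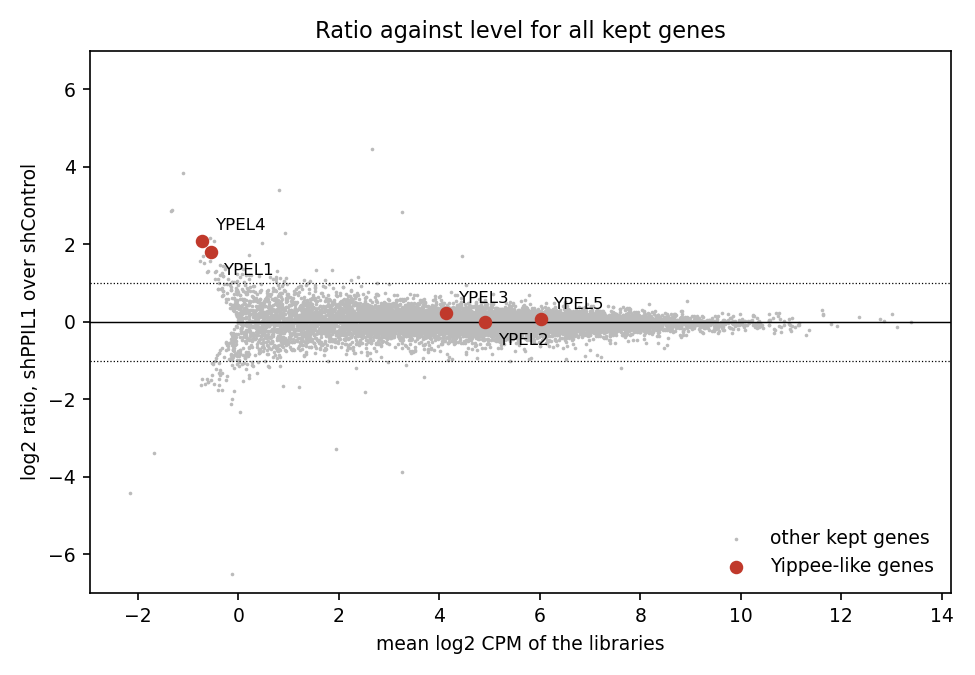
Log2 ratio of shPPIL1 over shControl against mean log2 CPM for all 12540 kept genes (grey) and the Yippee-like genes (red), with dotted lines at 2-fold. YPEL1 and YPEL4 lie at the low end of the level axis, at a mean under 1 CPM, which only genes with unequal libraries can have and still be kept, and YPEL2, YPEL3 and YPEL5 lie in the dense middle near 0.

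All members but YPEL5 share exonic bases with genes on the opposite strand in GENCODE 29, among them the 2 with high ratios. The strand setting of the counting is not given in the sources used here. YPEL1 (chr22:21697536-21735794, RefSeq GRCh38.p14) and PPIL2, a nuclear cyclophilin with a ubiquitin ligase domain, run towards each other and overlap by 2480 bases. In GENCODE 29, 2472 of the 4713 exonic bases of YPEL1 (52.5%) were also exonic in PPIL2. PPIL2 had 3281 reads in shPPIL1 and 3179 in shControl, a ratio of 1.01 (0.965 to 1.07), and stood at 23.3 FPKM in shPPIL1 and 22.7 FPKM in shControl. Without a stated strand setting, reads of YPEL1 and PPIL2 from the shared bases cannot be told apart.

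YPEL4 (chr11:57645087-57649912) shares 424 of 4460 exonic bases (9.51%) with genes on the opposite strand. They are CLP1, an RNA kinase of the 3′ end processing machinery, with 268 bases, and the non-coding gene AP000662.1 with 197. These are GENCODE exons, and by RefSeq positions CLP1 and YPEL4 overlap by 0 bases, with a gap of 7849 bases. The bases shared with CLP1 lie only in the YPEL4 exon at 1880 to 4691 bases from the 3′ end. The gene length behind the FPKM values, 2552 bases, is below the 4460 exonic bases. Whether that exon was counted is not known. CLP1 had 2319 reads in shPPIL1 and 2686 in shControl, a ratio of 0.848 (0.802 to 0.897), the opposite direction to YPEL4. The same share was 9.43% for YPEL3 (chr16:30092314-30096213), close to that of YPEL4. It was 1.66% for YPEL2 (chr17:59331655-59401729) and 0 bases for YPEL5 (chr2:30147007-30160533). The gene length behind the deposited FPKM values was 4606 bases for YPEL1, 5267 for YPEL2, 1270 for YPEL3, 2552 for YPEL4 and 2547 for YPEL5.

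**Figure D4:**
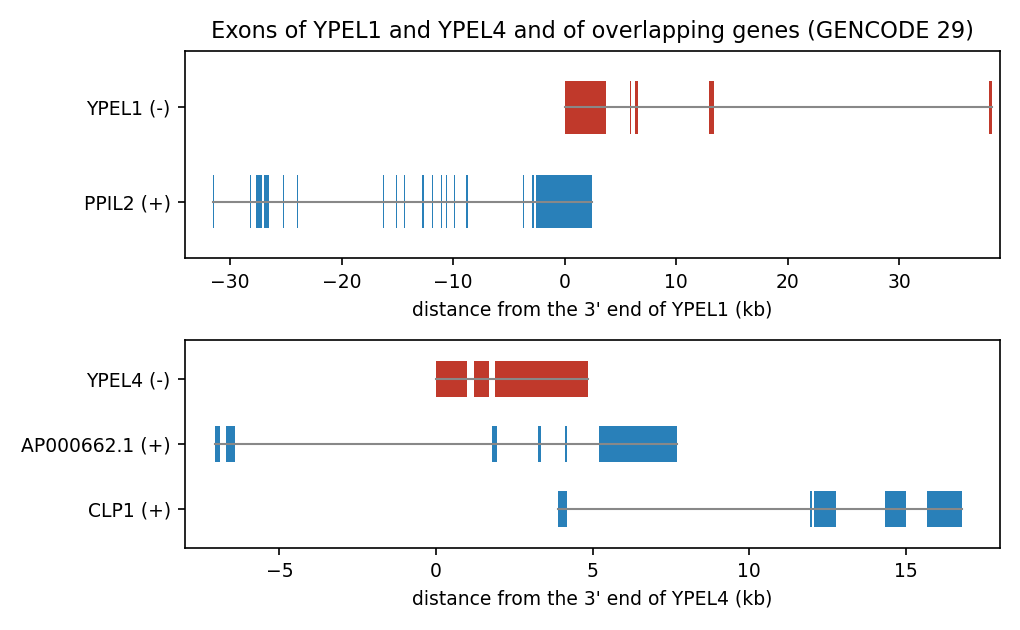
Exons (boxes) of YPEL1 and YPEL4 (red) and of the genes whose exons overlap them (blue), in kb from the 3′ end of the Yippee-like gene, with strands in brackets. In GENCODE, the last exon of YPEL1 is overlapped by PPIL2 over 2472 bases, and the exons of YPEL4 by CLP1 and AP000662.1 over 424 bases in all.

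Of the 10 protein-coding genes that flank the members on either side, 9 were kept, of which 0 were higher and 3 lower with an interval excluding 1, with a median log2 ratio of -0.05. Over all kept genes 24.6% were higher and 26.4% lower by that rule, with a median log2 ratio of 0.00. Beside YPEL3, TBX6, a T-box transcription factor of mesoderm, had 26 reads in shPPIL1 and 50 in shControl, a ratio of 0.511 (0.305 to 0.837). TBX6 was kept only through shControl, with 0.627 CPM in shPPIL1 and 1.23 CPM in shControl, which favours a ratio below 1. GDPD3, a lysophospholipase D on the other side of YPEL3, had a ratio of 1.19 (0.838 to 1.69). Beside YPEL2, GDPD1, a paralog of GDPD3, had 274 reads in shPPIL1 and 354 in shControl, a ratio of 0.760 (0.647 to 0.893). ALK, on the left of YPEL5, was not kept, with 4 reads in shPPIL1 and 0 in shControl.

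The subunits of the CTLH ubiquitin ligase to which YPEL5 belongs were close to equal in the libraries. Of 13 listed genes (10 subunits, the conjugating enzyme gene UBE2H and the reported substrates NMNAT1 and HBP1), 3 were higher, 4 lower and 6 had an interval including 1, with a median log2 ratio of 0.00. Over all kept genes 24.6% were higher and 26.4% lower by the same rule, so these counts set the list apart in neither direction. Ratios ran from 0.895 to 1.12 and 0 genes reached 1.5-fold. ARMC8, an armadillo-repeat subunit, had 1727 reads in shPPIL1 and 1515 in shControl, a ratio of 1.12 (1.04 to 1.20). GID8, another core subunit, had a ratio of 1.11 (1.06 to 1.15). WDR26, a WD-repeat subunit that recruits substrates and binds YPEL5, had 5027 reads in shPPIL1 and 5517 in shControl, a ratio of 0.895 (0.861 to 0.930). RANBP10, a paralog of the subunit RANBP9, had a ratio of 0.919 (0.854 to 0.989).

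Proteins outside the family that carry a domain of the same fold class as the Yippee domain are encoded by MIS18A, OIP5 and CRBN, of which 1 was higher and 2 were lower with an interval excluding 1, a rule that 24.6% of all kept genes met as higher and 26.4% as lower. MIS18A, which helps load the centromeric histone, had 1663 reads in shPPIL1 and 1400 in shControl, a ratio of 1.17 (1.09 to 1.25). Its partner OIP5 had 1095 reads in shPPIL1 and 1259 in shControl, a ratio of 0.855 (0.787 to 0.927). CRBN, the substrate receptor bound by thalidomide, had a ratio of 0.894 (0.833 to 0.960).

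**Figure D5:**
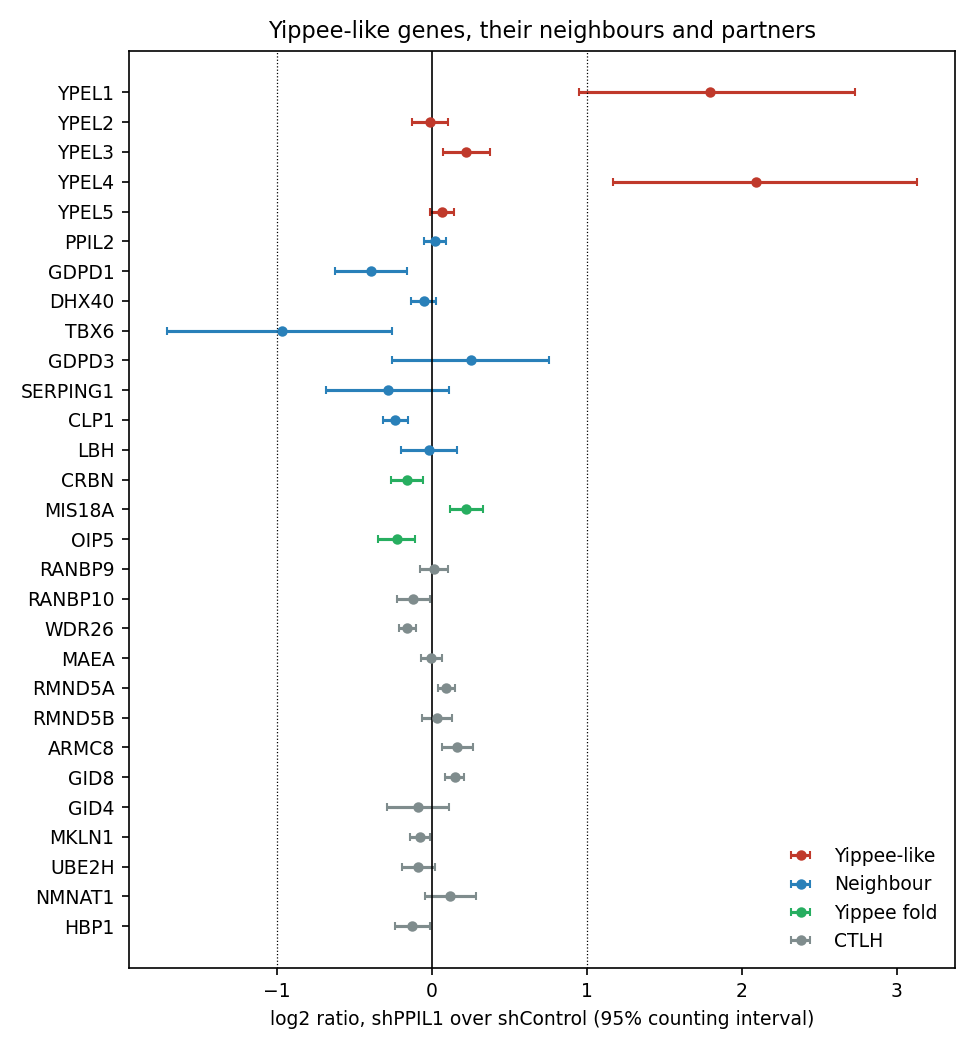
Log2 ratio of shPPIL1 over shControl with 95% counting intervals for the Yippee-like genes (red), 8 of their 9 kept neighbours (blue), genes of the Yippee fold family (green) and the CTLH list (grey), with dotted lines at 2-fold. YPEL1 and YPEL4 lie at 1.80 and 2.09, to the right of every other gene shown.

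The promoter of YPEL4 was set beside that of YPEL5, the most abundant member. The pair was chosen because the windows differ in composition, and a link between composition and level was not tested. The RefSeq windows (GRCh38.p14) run from 250 bases before to 50 bases after the gene start, 5′ to 3′ on the strand of the gene. Capitals mark CG pairs and matches to the motifs below.
YPEL4: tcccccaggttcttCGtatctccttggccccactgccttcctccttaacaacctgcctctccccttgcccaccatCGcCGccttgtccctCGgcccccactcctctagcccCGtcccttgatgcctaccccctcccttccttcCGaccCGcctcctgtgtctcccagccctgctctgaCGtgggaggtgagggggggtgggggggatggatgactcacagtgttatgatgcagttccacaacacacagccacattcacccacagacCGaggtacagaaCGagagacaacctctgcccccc
YPEL5: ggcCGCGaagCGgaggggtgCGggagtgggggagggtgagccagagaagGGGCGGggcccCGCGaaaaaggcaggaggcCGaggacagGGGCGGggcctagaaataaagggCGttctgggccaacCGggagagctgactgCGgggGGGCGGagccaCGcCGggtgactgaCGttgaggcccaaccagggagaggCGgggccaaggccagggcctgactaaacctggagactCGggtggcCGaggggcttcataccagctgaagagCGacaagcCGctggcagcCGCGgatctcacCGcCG
YPEL4 is read from the minus strand of chr11:57649863-57650162 and YPEL5 from the plus strand of chr2:30146757-30147056. The window of YPEL4 held 10 CG pairs at 62.3% G+C, that of YPEL5 25 CG pairs at 70.0%, and those of YPEL2 and YPEL3 33 and 42 CG pairs at 75.0% and 79.0%. No window was matched to YPEL1, the other member at a low level. The median over 27305 windows was 14 CG pairs and 58.3% G+C. The motifs searched on either strand were CACGTG (the E-box), TGACGTCA (the cyclic AMP response element), GGGCGG (the GC box), CCAAT and TATAAA. The GC box occurred 3 times each in YPEL2, YPEL3 and YPEL5 and 0 times in YPEL4, and at least once in 44.6% of all windows. CCAAT occurred 1 time each in YPEL2 and YPEL3, and in 35.7% of all windows. The other motifs occurred 0 times in the 4 windows, and in 7.43% (E-box), 1.98% (cyclic AMP response element) and 11.95% (TATAAA) of all windows.

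Likeness to other genes was measured by distance in log2 CPM over the 2 libraries, which captures level and ratio only. Nearest to YPEL4 were ITGA9 (59 reads in shPPIL1 and 13 in shControl, distance 0.216), DNAH2 (46 and 14, 0.284) and PIWIL4 (61 and 14, 0.320). Nearest to YPEL1 were OR1J2 (53 and 16, 0.0931), COL3A1 (48 and 16, 0.171) and again PIWIL4 (0.226). Closer fits were found for the abundant members, with GNL1 nearest to YPEL5 (2753 and 2593 reads, 0.00319), ARHGEF16 nearest to YPEL2 (1250 and 1234, 0.00493) and SLC39A8 nearest to YPEL3 (780 and 655, 0.00953).

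COL3A1, a fibrillar collagen chain, is also 1 of 3 fibroblast markers examined. The others were COL1A1, with 470 reads in shPPIL1 and 415 in shControl, and PDGFRB, with 10 reads in shPPIL1 and 3 in shControl. Summed levels were 2.31 FPKM in shPPIL1 and 1.90 FPKM in shControl for the fibroblast markers, and 1.34 FPKM in shPPIL1 and 1.58 FPKM in shControl for the endothelial markers PECAM1, VWF and CDH5. For the leukocyte markers PTPRC, CD3E and CD68 they were 18.3 FPKM in shPPIL1 and 19.6 FPKM in shControl, nearly all from CD68. The part of other cells in the ratios of YPEL1 and YPEL4 was not tested.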

How the data were processed

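Whole-number counts and FPKM values per gene were deposited by the authors for each library. The build was hg38, per the submitters' processing notes, and libraries were made from polyadenylated RNA with PCR, per the labels' protocols. No source used here states the aligner, counter, annotation or strand setting. Columns were tied to samples by the column names in the labels, and 7 further count columns match no label and were used in no step. Count divided by total and FPKM gave a whole gene length, within 0.001 bases, for 99.9% of genes in each library. Totals were scaled by TMM factors (edgeR 4.0.16, R 4.3.3; 1.01 for shPPIL1 and 0.993 for shControl), and genes at 1 CPM or more in at least 1 library were kept. Exact 95% intervals (Clopper-Pearson, or Poisson for a single FPKM) cover counting error only, since each group has 1 library. They treat reads as independent molecules, which PCR reads are not, so they may be too narrow. For equal counts of 50 they reached 1.51-fold, and for 1000, 1.09-fold. The interval and call steps were tested on simulated data. A library at 0 was given a floor of 3 reads for calls. The members and gene lists were chosen with earlier results of these data known. Named genes were the members, PPIL1, list genes past 1.5-fold or otherwise the 2 per direction whose interval bound nearest to 1 was most extreme, and the 3 kept genes nearest to each member, of which only the nearest is given for YPEL2, YPEL3 and YPEL5. PPIL2, GDPD3, CLP1, ALK and the markers were named for context after their values were seen. Another gene list and 1 neighbouring gene are not reported here. Proteins were translated from GENCODE 29 coding sequences, in place of RefSeq proteins, and aligned with mafft 7.526. Promoters and gene positions come from RefSeq (GRCh38.p14), with 4 of 5 members, all but YPEL1, matched to a promoter.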

Additional observations from a re-analysis of the deposited data

How the results depend on the processing

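No paired analysis was possible because each group has 1 library. Size factors of DESeq2 (1.42.0), library totals or the ratio of FPKM values left every member ratio within its counting interval, but by library totals the interval of YPEL5 (1.004 to 1.12) no longer included 1. The intervals of the other 4 members included or excluded 1 alike under TMM, DESeq2 size factors and library totals. On the FPKM + 1 scale, which compresses low genes, the ratio was 1.19 for YPEL1 and 1.34 for YPEL4. The 2 members past 2-fold remained 2 without a CPM minimum, at 1.5-fold and under either other scaling, and were 0 at 5 CPM, which neither reaches. With a mean of 1 CPM over both libraries, an alternative chosen after seeing the data, they were also 0. Over all genes, those 2-fold higher and lower (66 and 65) were 337 and 319 without a minimum, 7 and 11 at 5 CPM, 36 and 38 at a mean of 1 CPM, and 38 and 37 among kept genes with 50 to 100 reads. At 1.5-fold they were 253 and 279. The list medians moved by less than the counting error of their members under the 3 alternatives tried. With 12 to 15 reads in shControl, YPEL1 and YPEL4 have wide intervals, and no replicate bears on their ratios.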
